A study of Mus musculus with 4 samples.

Results

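Surface mucous cells, also called pit or foveolar cells, are the mucus-secreting cells that line the stomach lumen and its pits. A set of 9 genes listed for them was followed here in RNA sequencing of whole mouse embryonic stomach. The genes are Muc1, Muc5ac, Tff1, Gkn1, Gkn2, Gkn3, Psca, Capn8 and Foxq1. They were chosen by symbol, and all 9 had a row among the 51098 genes of the deposited table. Stomachs were taken at E15.5 (embryonic day), and 4 samples fell into 2 groups of 2. Fgf9_null samples carried Fgf9LacZ on both chromosomes (genotype Fgf9LacZ/LacZ, treatment field Fgf9KO), and Fgf9_het samples carried it beside a normal copy (genotype Fgf9LacZ/+, treatment field control, titled WT), so that all samples had at least 1 Fgf9LacZ allele. The labels do not say whether a sample was 1 embryo or several. The stated aim was to set Fgf9_null against Fgf9_het, Fgf9 being a secreted fibroblast growth factor that acts on the mesenchyme of developing organs.

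Surface mucous cells protect the gastric wall. They release a gel built from the mucin Muc5ac, to which the small trefoil peptide Tff1 binds, and they carry the membrane mucin Muc1 on their apical side. Gastrokines are small secreted proteins of the BRICHOS family, and Gkn1 and Gkn2 are among the most abundant products of these cells in the adult stomach. In the embryo this cell type takes shape from a simple epithelium, while the forestomach of the mouse becomes squamous.

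Same-numbered columns of the labels held nearly the same reads, which decides what can be compared. The columns summed to 19537211 and 22713416 estimated counts for Fgf9_null replicates 2 and 3, and to 19269851 and 22425865 for Fgf9_het replicates 2 and 3. Over genes with at least 10 counts in the column pair, the chi-square statistic divided by its degrees of freedom, computed for the columns numbered 2, was 0.000792, and for those numbered 3 it was 0.00385, with the small RNA genes and pseudogene Rn7s1, Rn7s6, Gm19220 and Gm26461 left out, which differ between the labels; with these 4 genes it was 4.46 and 4.64. Columns of different number within a label gave 5.50 to 5.52 over all such genes. Fgf9 itself had 133 and 131 reads in Fgf9_null, against 133 and 131 reads in Fgf9_het, and reads from parts of the gene that the LacZ allele may keep are not told apart. Same-numbered columns therefore differed by less than sampling noise; each such pair was counted as 1 sample, called library 2 and library 3. The names in the header may not stand over their own columns, and 2 unnamed columns of the table, not used here, may hold other samples. The labels Fgf9_null and Fgf9_het below are therefore only the names printed over the columns. The genotype of either library is not resolved by these columns, so no value below measures an effect of Fgf9. Levels are in CPM (the count scaled to a column total of 1000000), averaged over the 2 columns of a library and given as mean ± SD over n = 2 libraries.

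The mucins, the transcription factor gene and the trefoil gene held most of the reads of the 9 genes, and Gkn1 and Gkn2 were near the limit of detection. The 9 genes summed to 506 CPM in library 2 beside 502 CPM in library 3. Muc1, Muc5ac and Foxq1 made up 88.4% of that sum. All but Gkn1 and Gkn2, that is 7 of the 9 genes, had at least 1 CPM in each library, as did 14332 of 21779 protein-coding genes. The labelled tissue was checked against markers: Barx1, which marks the stomach mesenchyme, stood at 133 ± 4.73 CPM. Of 8 intestinal genes 2 reached 1 CPM in both libraries, Vil1, a microvillus gene, at 22.3 ± 0.547 CPM and Muc2 at 1.73 ± 0.184 CPM. Only 1 of the 8, Cdx1, an intestinal transcription factor gene, had no counts. The stomach was bulk tissue, so fewer cells of a type and less RNA per cell cannot be told apart. Reads of the 9 genes may also come from cells other than surface mucous cells. The plot of the 9 genes by column shows the 4 values of each gene.

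**Figure D1:**
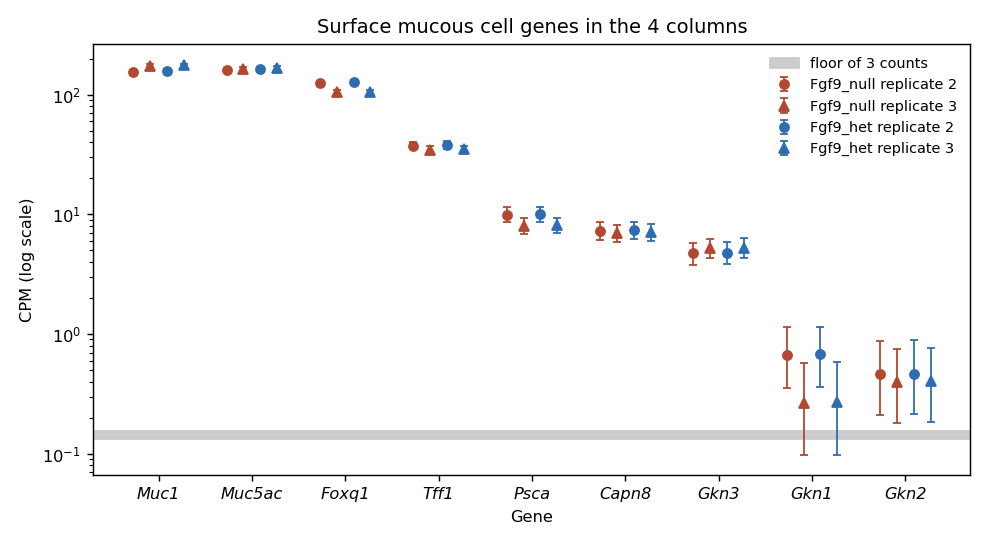
CPM of each surface mucous cell gene in the 4 columns, on a log axis, with exact Poisson 95% intervals that cover counting error only; the grey band is the floor of 3 counts. Columns of the same number (circles, replicate 2; triangles, replicate 3) sit at the same height under both labels, and Gkn1 and Gkn2 lie lowest, at 0.468 and 0.431 CPM on average.

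Muc1 encodes a mucin that spans the apical membrane (ENSMUSG00000042784, GRCm38 chromosome 3, 89229057 to 89233381, plus strand, 7 exons). It had 156 and 174 CPM in Fgf9_null replicates 2 and 3, against 158 and 177 CPM in Fgf9_het replicates 2 and 3. The estimated counts behind these values were 3042 and 3961 under either label. Replicate 3 was the higher of the pair under both labels, and the mean over libraries was 166 ± 13.2 CPM.

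Muc5ac encodes the gel-forming mucin that defines gastric surface mucus (ENSMUSG00000037974, chromosome 7, 141788972 to 141819231, plus strand, 49 exons in the longest transcript). It had 161 and 165 CPM in Fgf9_null, against 163 and 167 CPM in Fgf9_het. The counts were 3142 and 3744 in Fgf9_null, against 3143 and 3745 in Fgf9_het. The libraries were close to each other, at 164 ± 2.79 CPM. Muc1 and Muc5ac were thus alike in CPM, but the Muc5ac transcripts are several times as long, so their levels per length differ, as given further on.

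Tff1 encodes a trefoil peptide that is secreted with Muc5ac (ENSMUSG00000024032, chromosome 17, 31161395 to 31165277, minus strand, 3 exons). It had 37.6 and 34.5 CPM in Fgf9_null, against 38.1 and 34.9 CPM in Fgf9_het. Replicate 2 was slightly above replicate 3 under both labels. Its counts, 735 and 784 under either label, were not whole numbers, so some reads were divided between Tff1 and another transcript. An antisense gene, Gm15318, overlaps Tff1 and had 0.887 CPM.

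The gastrokine genes stood far below the mucins. Gkn1 (ENSMUSG00000030050, 6 exons, minus strand) had 13 and 6 reads in Fgf9_null, against 13 and 6 reads in Fgf9_het. Counting error alone gave 95% limits (exact Poisson) of 6.92 to 22.2 reads in library 2 and 2.20 to 13.1 reads in library 3. The reads corresponded to 0.670 CPM in library 2 beside 0.266 CPM in library 3, where a floor of 3 counts was worth 0.132 to 0.156 CPM. Gkn1 was therefore above that floor in both libraries, but the interval of library 3 reaches below it.

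Gkn2 encodes a gastrokine that in human stomach is known to pair with Tff1 (ENSMUSG00000030049, 6 exons, plus strand). It had 9 and 9 reads in Fgf9_null, against 9 and 9 reads in Fgf9_het, with an interval of 4.12 to 17.1 reads in each library. This was 0.464 CPM in library 2 beside 0.399 CPM in library 3. Gkn3, a gastrokine known from the mucous neck cells of the adult mouse stomach (ENSMUSG00000030048, 6 exons, minus strand), had more reads than Gkn1 and Gkn2. It had 92 and 118 reads in Fgf9_null, against 92 and 118 reads in Fgf9_het, and a mean of 4.99 ± 0.344 CPM.

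Psca encodes a small protein of the Ly6 family that is held on the cell surface by a lipid anchor (ENSMUSG00000022598, chromosome 15, 74714839 to 74717069, plus strand, 3 exons). It had 9.93 and 8.01 CPM in Fgf9_null, against 10.1 and 8.12 CPM in Fgf9_het, from 194 and 182 reads under either label. Replicate 2 was the higher of the pair under both labels. The mean was 9.03 ± 1.37 CPM.

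Capn8 encodes a calcium-dependent cysteine protease found mainly in gastric surface mucous cells of the adult (ENSMUSG00000038599, chromosome 1, 182565007 to 182632352, plus strand). It had 7.27 and 6.96 CPM in Fgf9_null, against 7.37 and 7.09 CPM in Fgf9_het. The libraries differed little, with a mean of 7.17 ± 0.209 CPM, and the counts of 142 and 158 in Fgf9_null lay beside 142 and 159 in Fgf9_het.

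Foxq1 is the only transcription factor gene among the 9, and in mice it is needed for Muc5ac to be made in the stomach (ENSMUSG00000038415, chromosome 13, 31556134 to 31560976, plus strand, 1 exon). It had 125.5 and 104 CPM in Fgf9_null, against 127 and 106 CPM in Fgf9_het. Replicate 2 was above replicate 3 under both labels, and the mean was 116 ± 15.1 CPM. The protein-coding gene A530084C06Rik lies on the opposite strand over 31556134 to 31559333 and had 4.47 CPM. Foxq1 had 2450.94 and 2371.37 counts in Fgf9_null, against 2453.85 and 2371.37 in Fgf9_het. These were not whole numbers, so some reads were divided between Foxq1 and another transcript. The strand setting of the authors' counting is not given in the sources used here. Reads of Foxq1 and A530084C06Rik may therefore not be separable, and the level of Foxq1 is uncertain to that extent.

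Levels of different genes can be set side by side only per length. Divided by the median length of the gene's protein-coding transcripts in GENCODE M21, Tff1 and Muc1 led at 74.5 ± 4.57 and 74.1 ± 5.91 CPM per kilobase, and their library values overlapped. Foxq1 followed at 23.9 ± 3.11 and Muc5ac at 19.3 ± 0.329 CPM per kilobase. Psca stood at 10.5 ± 1.59, Gkn3 at 5.82 ± 0.402 and Capn8 at 2.93 ± 0.0855 CPM per kilobase. Gkn2 and Gkn1 closed the order at 0.547 ± 0.0584 and 0.374 ± 0.229 CPM per kilobase. Apart from the pairs Tff1 with Muc1 and Gkn2 with Gkn1, the values of neighbours in this order did not overlap between libraries. Muc1 was thus 3.10 times as high per length as Foxq1, while Foxq1 exceeded Muc5ac by 1.24 times and Capn8 exceeded Gkn2 by 5.36 times.

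The lead of Tff1 depended on the length used. With the longest protein-coding transcript, of 703 bases, Tff1 fell to second place at 51.6 ± 3.17 CPM per kilobase, and Muc1 led at 74.1 ± 5.91. Muc5ac then stood at 15.2 ± 0.260 CPM per kilobase over 10752 bases, still in place 4. With the union of exons, Capn8 stood at 1.90 ± 0.0554 CPM per kilobase, still above Gkn2 at 0.547. The remaining 7 places were the same with the longest transcript and with the union of exons. By CPM per kilobase of median length, Tff1 and Muc1 held ranks 1090 and 1099 among 21779 protein-coding genes. Foxq1 was at rank 3874, Muc5ac at 4749, Psca at 7367 and Gkn1 at 14913. Ranks with the other lengths were not computed.

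**Figure D2:**
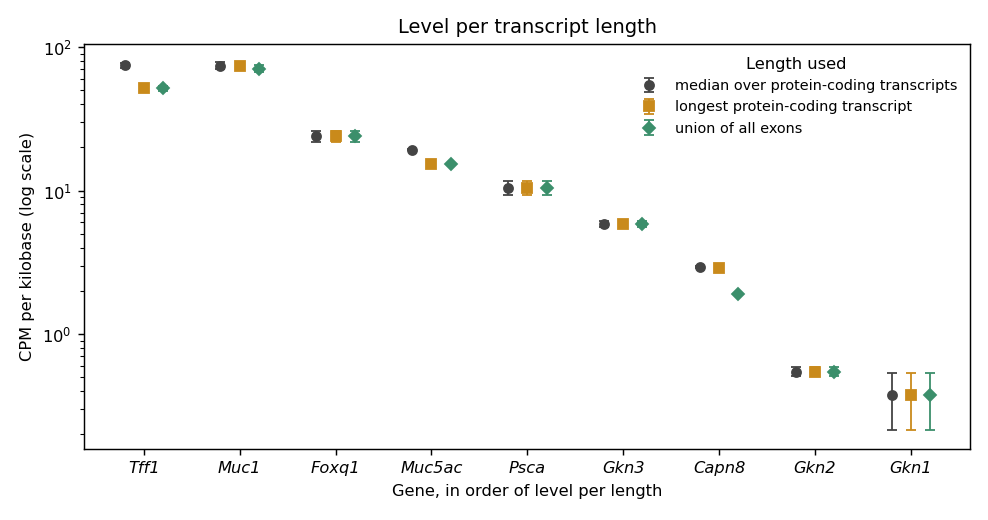
Mean CPM per kilobase of each surface mucous cell gene under 3 choices of transcript length, on a log axis; bars run to the values of library 2 and library 3. Tff1 moves from 74.5 to 51.6 CPM per kilobase when its longest transcript is used in place of the median, while Gkn2 and Gkn1 stay below 1 CPM per kilobase under all 3.

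Among their gene families, Muc1 and Tff1 stood at the top and the gastrokines and Capn8 lower down. Muc1 was first of 13 measured mucin genes per length, ahead of the gland mucin gene Muc6 at 26.4 ± 0.609 CPM per kilobase, and this held with the longest transcripts too. Muc5ac was in place 4 by median length, behind the membrane mucin gene Muc4, and in place 3 by longest transcript. Its neighbour Muc5b, another gel-forming mucin gene, stood at 6.79 ± 0.693 CPM per kilobase. Muc2, the main intestinal mucin gene, had 1.73 ± 0.184 CPM. Per kilobase this was 2.25 ± 0.240 CPM by median length (767 bases) and 0.590 ± 0.0629 CPM by longest transcript (2926 bases).

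Tff1 was first of the 3 trefoil genes. Tff2, known from gland mucous cells, had 28.4 ± 4.56 CPM per kilobase, and Tff3, known from intestinal goblet cells, had 1.91 ± 0.480 CPM per kilobase. Gkn3, Gkn2 and Gkn1 took places 4, 6 and 8 of 10 BRICHOS genes by median length, below the widely expressed Itm2b, Itm2a and Itm2c. Psca was in place 5 of 16 Ly6 family genes, close to Ly6d at 11.8 ± 1.76 and below Lypd2 at 15.48 ± 2.83 CPM per kilobase. Capn8 was in place 9 of 15 calpain genes under both lengths. Capn9, whose product forms a complex with Capn8 in the adult stomach, had 0.479 ± 0.107 CPM per kilobase, from 10 reads in library 2 and 16 reads in library 3. The plot of the families shows these orders under both lengths.

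**Figure D3:**
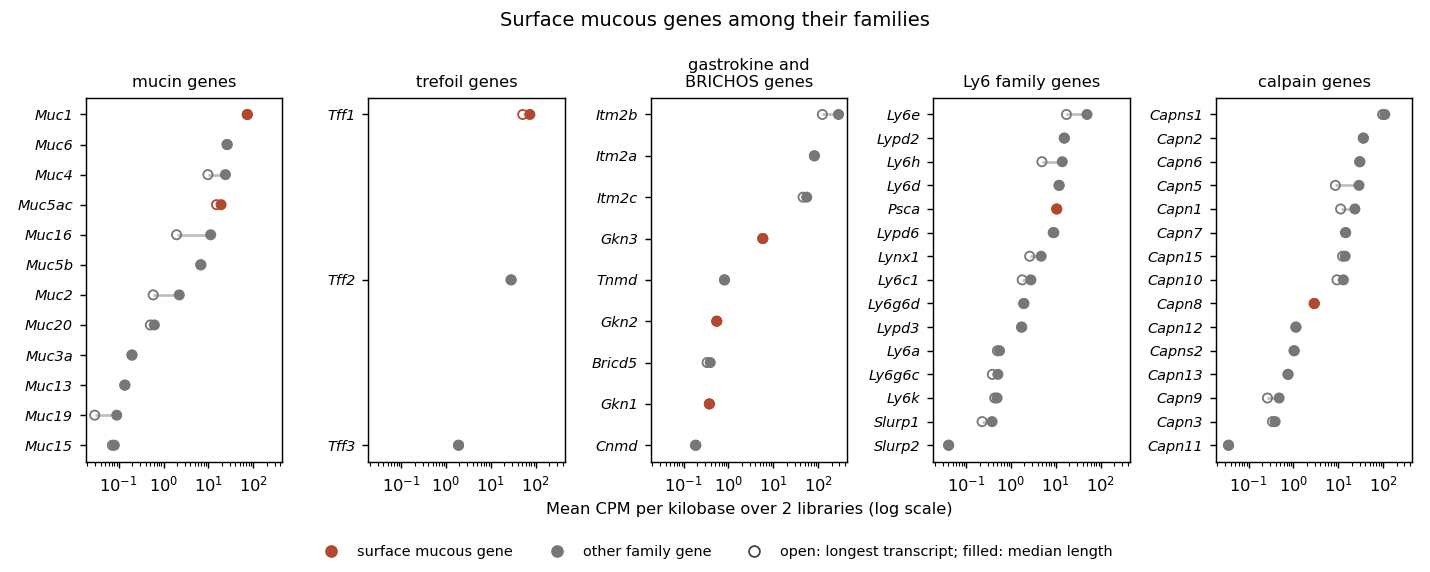
Mean CPM per kilobase of genes in 5 families, on a log axis, with surface mucous cell genes in red; filled points use the median transcript length, open points the longest transcript, and genes with no counts are not drawn. Muc1 and Tff1 lead their families under both lengths, while Gkn1, Gkn2 and Capn8 lie in the lower part of theirs.

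Several of these genes sit beside relatives that differ from them in level. Gkn1, Gkn2 and Gkn3 are adjacent on chromosome 6, at 87345650 to 87350942, 87373357 to 87379497 and 87383256 to 87388935. Gkn2 and Gkn3 lie 3759 bases apart on opposite strands, and Gkn3 had 4.99 CPM beside 0.431 CPM for Gkn2. The next protein-coding genes outward were Antxr1, an anthrax toxin receptor gene at 134 CPM, and Bmp10, a heart growth factor gene at 0.0665 CPM. On chromosome 7, Muc5ac lies between Muc2 and Muc5b, and Muc5b had 102 ± 10.4 CPM. On chromosome 17, Tff1 is flanked by Tff2, at 16.6 ± 2.66 CPM, and by the protease gene Tmprss3, at 0.660 CPM. Capn8 lies beside the widely expressed calpain gene Capn2, which had 117 ± 0.780 CPM, and Foxq1 beside the mesenchymal forkhead gene Foxf2, which had 68.3 CPM.

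The sequence upstream of the start is shown for the 3 gastrokines, the lowest of the set by CPM, and for Muc1, the highest with an entry. Per length, Capn8 stood below Gkn3, and the Capn8 window is not printed. RefSeq (GRCm38.p6) gave a window for 5 of the 9 genes, namely Gkn1, Gkn2, Gkn3, Muc1 and Capn8. Printed are the 250 bases before the RefSeq start, 5′ to 3′ on the gene's strand: chr6:87350916-87351165 (minus strand) for Gkn1, chr6:87373115-87373364 (plus) for Gkn2, chr6:87388936-87389185 (minus) for Gkn3 and chr3:89228806-89229055 (plus) for Muc1. Capitals mark 3 motifs on either strand. They are GATAA or TTATC, a form of the site bound by GATA factors, TATAAA or TTTATA, the TATA box, and GGGCGG or CCGCCC, the GC box. The motifs were chosen after the sequences were seen.
Gkn1: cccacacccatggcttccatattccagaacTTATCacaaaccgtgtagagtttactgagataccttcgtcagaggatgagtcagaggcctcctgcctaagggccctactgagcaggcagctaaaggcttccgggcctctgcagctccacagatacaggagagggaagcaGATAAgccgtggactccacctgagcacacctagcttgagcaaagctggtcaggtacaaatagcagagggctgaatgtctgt
Gkn2: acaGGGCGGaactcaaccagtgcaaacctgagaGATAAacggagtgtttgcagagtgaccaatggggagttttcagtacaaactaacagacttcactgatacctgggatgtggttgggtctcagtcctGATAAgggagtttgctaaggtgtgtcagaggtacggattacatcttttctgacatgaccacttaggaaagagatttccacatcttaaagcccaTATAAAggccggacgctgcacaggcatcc
Gkn3: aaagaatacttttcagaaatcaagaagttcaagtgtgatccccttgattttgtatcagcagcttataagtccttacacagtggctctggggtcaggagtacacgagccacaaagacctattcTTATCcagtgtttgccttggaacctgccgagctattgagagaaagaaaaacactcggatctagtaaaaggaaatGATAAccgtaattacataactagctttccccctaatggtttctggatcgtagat
Muc1: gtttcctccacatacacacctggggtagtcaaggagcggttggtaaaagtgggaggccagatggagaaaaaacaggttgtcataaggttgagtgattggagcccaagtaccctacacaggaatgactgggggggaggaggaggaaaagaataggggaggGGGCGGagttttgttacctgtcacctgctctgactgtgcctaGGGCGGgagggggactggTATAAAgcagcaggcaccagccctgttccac

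Each gastrokine window held 2 matches to GATAA or TTATC, while the Muc1 and Capn8 windows held none. Other forms of the GATA site were not searched for, and the Capn8 window holds the letters GATAG and CTATC. Whether the windows differ in GATA sites as a whole was therefore not determined. At least 1 match to these letters occurs in 22.6% of 32851 RefSeq windows of the same length. The share with 2 matches was not counted, so this share does not weigh the gastrokine counts. In Gkn1 the matches began 81 and 220 bases before the start, in Gkn2 122 and 217 bases, and in Gkn3 54 and 128 bases. The GATA factor genes Gata4 and Gata6, known for the glandular stomach epithelium, had 114 ± 3.93 and 69.9 ± 4.07 CPM. A TATA box, present in 12.4% of windows, began 29 bases before the start in Gkn2 and 31 bases before it in Muc1. The GC box, present in 32.7% of windows, occurred 2 times in Muc1 and 1 time in Gkn2. These are matches of letters and say nothing of binding.

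Fgf9_null against Fgf9_het was the comparison named in the series design, and none of the 9 genes passed its test. By edgeR's quasi-likelihood test with Benjamini-Hochberg adjustment, 0 of 19987 genes (0%) had an adjusted p under 0.05, with 4 genes at an unadjusted p under 0.05, none of them among the 9; DESeq2 called 3 genes, also none of the 9. Of the 9 genes 8 were tested, Gkn2 having been removed by the filter on low counts. Their log2 folds of Fgf9_null over Fgf9_het lay within 0.0043 of 0, the furthest being Capn8 at -0.0043 (SE 0.0504, edgeR adjusted p = 1). Of 18 same-numbered pairs of counts, 13 were equal within 0.0011 reads, and the widest gap was 2.91 reads, in Foxq1. Because the columns of a number hold the same library, this result does not show that the genotypes are alike.

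Library 2 against library 3 was the only contrast between independent libraries among the 4 named columns, and it has no replicate check. Muc1 was lower in library 2, with 157 CPM there beside 176 CPM in library 3, a ratio of 0.893 (95% counting interval 0.852 to 0.937). Foxq1 was higher in library 2, with 126 CPM there beside 105 CPM in library 3, a ratio of 1.20 (1.14 to 1.27). Psca was also higher in library 2, with 9.999 CPM there beside 8.06 CPM in library 3, a ratio of 1.24 (1.01 to 1.53). These 3 are the genes whose interval left out 1. The intervals are exact binomial and cover counting error only, not the spread between embryos or the division of Foxq1 reads.

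The other genes were closer to even or had too few reads. Muc5ac had a ratio of 0.976 (0.931 to 1.02), Tff1 of 1.09 (0.985 to 1.21), Capn8 of 1.04 (0.827 to 1.32) and Gkn3 of 0.907 (0.683 to 1.20). Gkn1 had a ratio of 2.52 with an interval of 0.894 to 8.09, and Gkn2 of 1.16 with an interval of 0.409 to 3.31, so at this depth no difference was detectable for either. Of the 7 genes at 1 CPM or more, 0 passed 1.5-fold, where 3.88% of all 16712 such genes did. The median ratio of the 7 was 1.04, beside 1.01 over all such genes, and all 7 lay between the 5th and 95th percentiles of those genes, 0.797 and 1.36.

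**Figure D4:**
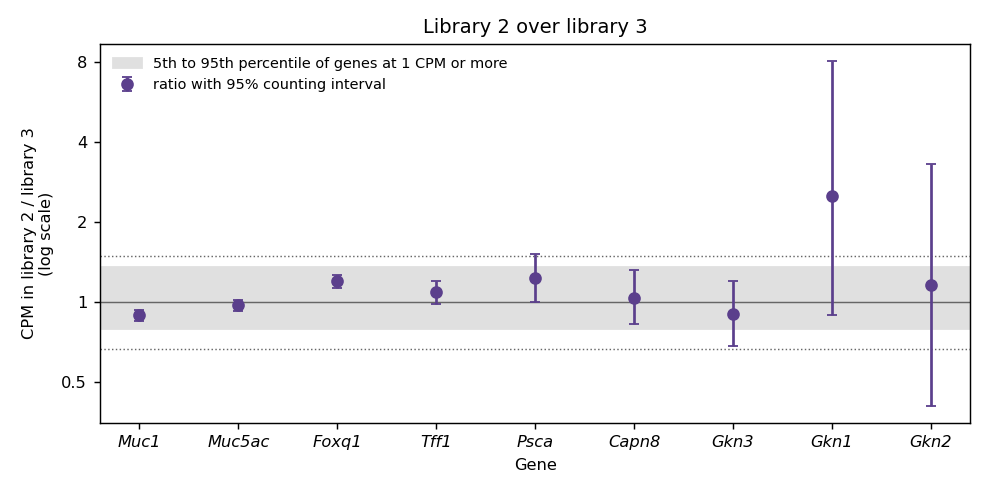
Ratio of CPM in library 2 to CPM in library 3 for each surface mucous cell gene, on a log axis, with exact binomial 95% intervals for counting error; dotted lines mark 1.5-fold and the grey band runs from 0.797 to 1.36, the 5th to 95th percentile of genes at 1 CPM or more. The interval of Muc1 lies below 1 and those of Foxq1 and Psca above it, a trait not counted over all genes. Gkn1 and Gkn2 have the widest intervals.

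Among markers of other cell types, those of the squamous forestomach differed most between the libraries. The 15 squamous forestomach genes summed to 696 CPM in library 2 beside 399 CPM in library 3, and 7 of the 11 at 1 CPM or more passed 1.5-fold toward library 2, as did 2.52% of all such genes. Krt15 and Krt13, keratin genes of squamous epithelium, had ratios of 1.72 and 1.96. Sprr1a, a cornified envelope gene, passed 1.5-fold the other way with a ratio of 0.554, and Sbsn was near even at 0.973. None of the 15 was at 0; among genes of late squamous layers, Sprr1a and Sbsn had 22.4 ± 9.10 and 7.18 ± 0.136 CPM, while Ivl and Lor were below 1 CPM in both libraries. Foxq1 and Psca moved in the same direction as this list, and its part in their ratios was not tested. The 12 simple epithelium genes, among them Krt8 at 581 ± 9.74, Krt19 at 391 ± 9.39, Cdh1 at 389 ± 3.32 and Krt18 at 238 ± 4.39 CPM, summed to 2238 CPM in library 2 beside 2235 CPM in library 3, with a median ratio of 0.994.

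Of all genes at 1 CPM or more, 3.88% passed 1.5-fold in either direction. Of the 6 gland mucous and chief genes at that level, 1 passed 1.5-fold, and the median ratio was 1.21. Cym, the milk-clotting protease chymosin, had 4692 ± 269 CPM, and Pga5, a pepsinogen gene and the one past 1.5-fold, had 56.6 CPM in library 2 beside 32.2 CPM in library 3. Aqp5, below 1 CPM, went the other way with a ratio of 0.582. Of 6 parietal genes, 1 passed 1.5-fold, and the median ratio was 0.953; it was Atp4a, a proton pump subunit gene, at 23.2 CPM in library 2 beside 35.5 CPM in library 3. The difference between these lists and the surface mucous genes was not tested. The plot of list ratios sets the surface mucous genes beside these lists.

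**Figure D5:**
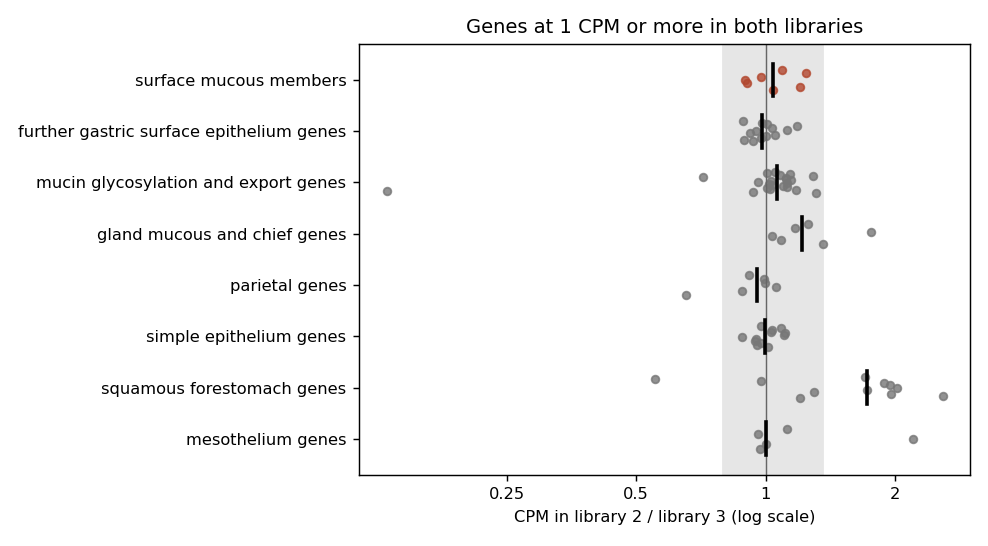
Ratio of CPM in library 2 to CPM in library 3 for genes of 8 lists at 1 CPM or more in both libraries, on a log axis; each point is a gene, black bars are list medians, and the grey band is the 5th to 95th percentile of all such genes. The 7 surface mucous cell genes (red) lie inside the band with a median of 1.04, whereas the squamous forestomach list has a median of 1.72.

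Further genes of the gastric surface epithelium spanned a wide range of CPM. Of 16 such genes, 13 had at least 1 CPM in both libraries, as did 14332 of 21779 protein-coding genes. Of these 13, 0 passed 1.5-fold, where 3.88% of all genes at that level did, and their median ratio was 0.981. Cldn18, a claudin gene of the stomach, had 377 ± 7.11 CPM. Ctse, the gene of cathepsin E, an aspartic protease of surface mucous cells, had 111 ± 0.0364 CPM, and the mucin-like gene Mucl3 had 86.4 ± 2.02 CPM. Krt20 had 1.27 ± 0.102 CPM, and Sult1c2, Fer1l6 and Capn9 were the 3 genes below 1 CPM in a library.

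RNA of genes for building and exporting mucins was present as well. In bulk tissue, the cells that held this RNA cannot be told. Of 24 genes for mucin glycosylation and export, 22 had at least 1 CPM in both libraries, as did 14332 of 21779 protein-coding genes. The median ratio of the 22 was 1.06. Galnt2 and Galnt4, enzymes that start O-glycan chains, had 163 ± 4.86 and 102 ± 9.89 CPM. Creb3l1 and Xbp1, transcription factor genes of the secretory pathway, had 91.8 ± 0.260 and 86.5 ± 2.91 CPM. Agr2, a disulphide isomerase gene needed for gel-forming mucins, had 57.9 ± 2.88 CPM. B3gnt6, which makes core 3 glycans, had 0.0515 CPM in library 2 beside 0.133 CPM in library 3, and St6galnac1, a sialyltransferase gene, had no counts. A count of 0 in a column allows up to 3 counts, or 0.132 to 0.156 CPM.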

How the data were processed

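Total RNA of E15.5 stomach was reverse transcribed with random hexamers after ribosomal RNA removal (RNase H) and sequenced as paired reads of 150 bases, per the labels' protocols. Salmon 1.8.0, edgeR, Trimmomatic 0.33 and FastQC 0.10 are named in the submitters' processing notes beside the builds mm10 and GRCm38, with no roles; how strand was set is not given in the sources used here. Estimated counts per gene, not scaled to depth, are what the authors deposited. Groups follow the genotype field, and columns were matched to samples by title. The table has 2 further value columns with no name, which were not used; they may hold other samples, and whether each name stands over its own column cannot be decided from the labels.

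CPM used column totals, at which 1 count was worth 0.0440 to 0.0519 CPM. Same-numbered columns were averaged. Lengths, positions and neighbours came from GENCODE M21 (GRCm38), in which 50870 of 51098 identifiers were found. Rounded counts went into edgeR 4.0.16 under R 4.3.3 (TMM, filterByExpr, quasi-likelihood F test, Benjamini-Hochberg over all genes, threshold 0.05), after a check on simulated data; DESeq2 1.42.0 and limma-voom (limma 3.58.1) were alternatives. These p-values measure only the spread between the columns. The contrast of libraries has 1 sample a side and no test; 1.5-fold and 1 CPM were its limits. Other alternatives were RLE factors, other filters, a replicate block, leaving out columns, totals without 7 structured or ribosomal RNA genes, the columns of 1 label, and other lengths. The 15 lists, counting the 9 genes as a list, were chosen with earlier results of these data known. Named genes were the 9, up to 4 of the highest CPM in each list, family members, neighbours and the extremes of a list; Agr2, Gata6, Sprr1a, Sbsn, Ivl, Lor, Aqp5, Krt20, B3gnt3 and the trio below 1 CPM in the surface list were named after their values were seen. With 2 libraries, likeness of patterns between genes was not computed.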

Additional observations from a re-analysis of the deposited data

How the results depend on the processing

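For Fgf9_null over Fgf9_het, 0 of the tested genes among the 9 (7 to 9, by filter) were called by edgeR under each of its settings, or by DESeq2 or limma-voom at 1 setting each. The count of called genes over the whole table was 0 with RLE factors, without a filter on low counts, with at least 1 CPM in all columns and with limma-voom. It was 3 with DESeq2, 6 with the replicate block and 1 to 2 without 1 column, the lone column being assumed to vary like the other group. With the block and robust estimation in edgeR, added after seeing the data, it was 0, with 5 genes at an unadjusted p under 0.05; the blocked count thus depends on how the spread between nearly identical columns is estimated. The labels do not say what a replicate number marks; the block pairs each library with itself, and deviations of same-numbered columns from their label means correlated at 0.998 over 19987 genes. The largest absolute log2 fold among the 9 was 0.0038 to 0.0045 with all columns and 0.53 to 0.76 without 1 column, which sets the libraries against each other.

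For library 2 over library 3, the 649 genes past 1.5-fold became 2446 at the lower fold limit tried, 87 at 2-fold, 157 with a minimum of 5 CPM and 2356 with a minimum of 0.2 CPM. Of the 9 genes, 1 passed, Gkn1, with a minimum of 0.2 CPM, where 11.2% of all genes did, and 0 under the other alternatives. No ratio of the 9 changed side of 1 under TMM-scaled totals, totals without structured RNAs or the columns of a single label. Levels without structured RNAs were 1.205 to 1.207 times those given. Depth limits Gkn1 and Gkn2, and n = 2 libraries limits every comparison.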

Other observations

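B3gnt3, a gene for an N-acetylglucosamine transferase that extends mucin-type glycans, differed most between the libraries among the 24 genes for mucin glycosylation and export. It had 2.63 CPM in library 2 beside 19.98 CPM in library 3, from 51.0 and 451 counts, the same under both labels. The ratio was 0.132, while the other 21 genes of that list at 1 CPM or more stayed within 1.5-fold. Over all genes at that level, 3.88% passed 1.5-fold in either direction. B3gnt3 was singled out after its values were seen, and with 1 sample a side the difference has no replicate check.

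Psca shares chromosome 15 with other Ly6 family genes. Among those at 1 CPM or more in both libraries, the ratio of library 2 over library 3 was 1.24 for Psca, 1.24 for Ly6d, 1.30 for Lypd2, 1.22 for Lynx1 and 1.14 for Ly6h, while Ly6e at 0.909 and Ly6c1 at 0.695 lay on the other side of 1. Ly6 family genes on other chromosomes also lay above 1 at that level, Lypd3 (chromosome 7) at 1.86 and Lypd6 (chromosome 2) at 1.11. The ratios were not tested.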
